A study of Drosophila melanogaster with 6 samples.

Results

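The genes described here encode 10 Drosophila proteins of the zona pellucida (ZP) domain family that are placed in the apical extracellular matrix: dyl, dpy, pio, m, mey, nyo, neo, tyn, qsm and zye. They were found by their symbols in the gene column of the deposited table, which holds 17649 genes, and all 10 were present. Whole eyes of Canton S pupae, a wild-type strain for which the labels give no mutation or treatment, were dissected at 40 h or at 21 h after puparium formation (APF), with 3 biological replicates per stage and RNA from a pool of eyes in each. Expression was measured by RNA sequencing. The deposited values are FPKM, which are sequenced fragments of a gene scaled by transcript length and by library size. The authors scaled the libraries by the geometric method of Cuffdiff and pooled the 3 replicates, which gave 1 value per gene and stage. The authors' own test columns in that table were not used, so no replicate error or test is given here, and each difference below compares 2 pooled values with no replicate check. A gene is called higher or lower where its log2 ratio of FPKM + 0.1, 40 h over 21 h APF, passed a 2-fold change, and calls were made for the 9828 genes that had at least 1 FPKM at one stage or the other.

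ZP-domain proteins are secreted or membrane-anchored polypeptides that polymerize through the ZP domain into filaments and sheets. In insects these filaments line the apical face of epithelia before and while chitin and cuticle are laid down, where they hold the cell surface to the matrix above it and shape bristles, denticles, wing cells and tracheal tubes. In the fly eye, cone and primary pigment cells secrete the corneal lens onto this apical face, and dyl, dpy and pio are known to act in the matrix on which the lens takes its shape.

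Of the 10 genes, 9 had at least 1 FPKM at one of the stages. 7 of these 9 were at least 2-fold higher at 40 h APF (tyn, dyl, mey, m, nyo, dpy and neo), 1 was at least 2-fold lower (qsm), and pio was on neither side of the 2-fold change. Among all 9828 genes with a call, 14.8% were higher and 10.7% were lower by this rule. A change of at least 4-fold upward was met by 6 of the 9 genes, against 7.54% of all genes with a call. The median log2 ratio was 2.46 for the 9 genes and -0.02 for all genes with a call. In bulk tissue, more cells of a type that expresses a gene and more RNA per cell cannot be told apart.

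**Figure D1:**
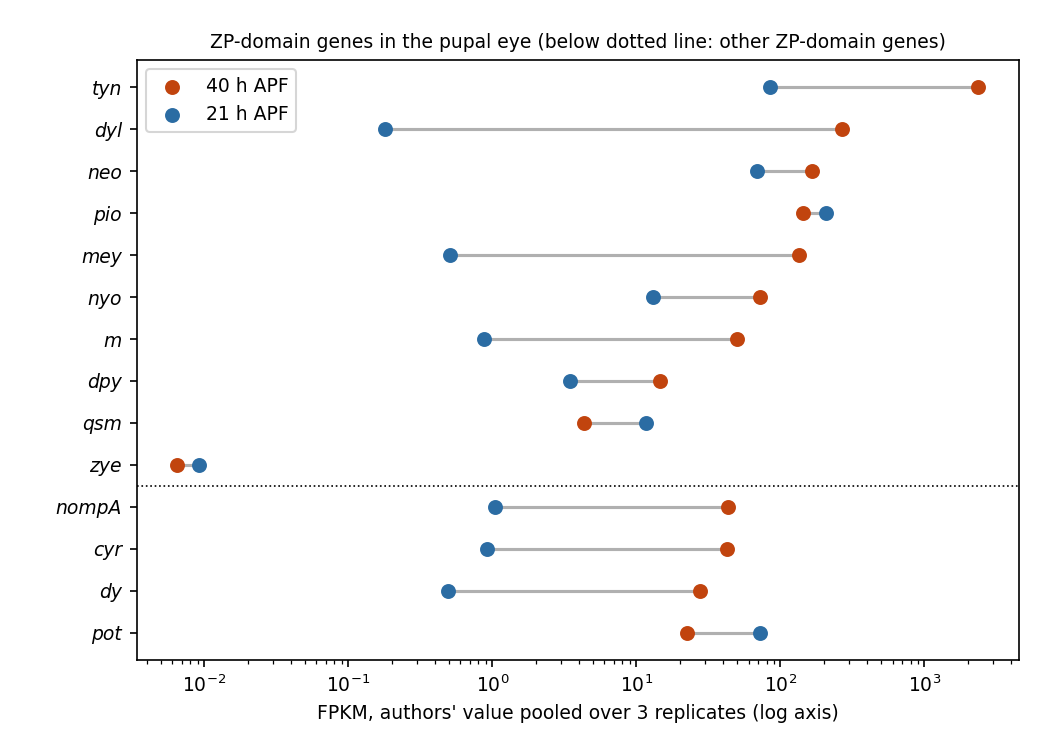
FPKM of each ZP-domain gene at 40 h (orange) and 21 h APF (blue) on a log axis, with a line joining the 2 values of a gene. The 10 genes of the report stand above the dotted line, ordered by their 40 h level, and 4 further ZP-domain genes below it. At 21 h, 4 of the 10 genes were under 1 FPKM, while at 40 h this was so of zye alone.

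The makeup of the summed level of the 10 genes differed between the stages. Added together, the 10 genes reached 3217 FPKM at 40 h, against 389 at 21 h APF, an 8.26-fold difference. At 40 h, tyn held 73.6% of this sum and pio held 4.43%. At 21 h, pio held 53.3% and tyn held 21.6%. Without tyn the sums were 849 FPKM at 40 h, against 305 at 21 h, a 2.78-fold difference, so most of the added signal lay in 1 gene. The order of the levels at 40 h ran from tyn through dyl, neo, pio, mey, nyo, m, dpy and qsm to zye, and at 21 h from pio through tyn, neo, nyo, qsm, dpy, m, mey and dyl to zye. Without replicate values, it is not known which neighbours in these orders differ beyond their spread.

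Among the genes of the matrix that anchors cells to the cuticle, dpy (dumpy) encodes a giant filament protein that ties the epidermis to the cuticle, and pio (piopio) encodes a ZP protein that works with it in the wing and the trachea. dpy (FBgn0053196, on chromosome 2L from 4477462 to 4614300 of BDGP6, minus strand) had 14.6 FPKM at 40 h, against 3.46 at 21 h APF, a 4.20-fold higher level. Its longest annotated transcript has 82 exons and 71382 bases and codes for 22949 residues. By the estimate given with dyl, its levels rest on about 16468 fragments at 40 h and 4090 at 21 h. These numbers are for its shortest transcript, of 26263 bases, and are the lowest that its annotated transcripts give. pio (FBgn0020521, on chromosome 2R from 24581245 to 24597862, plus strand) had 142.5 FPKM at 40 h, against 208 at 21 h APF, a log2 ratio of -0.54, and ranked 604 of 17649 genes by level at 40 h and 339 at 21 h. Of these partners dpy was called higher and pio was not called, and their levels were 9.79-fold apart at 40 h and 59.9-fold apart at 21 h, pio being higher at both. The reads were aligned without splicing. The longest transcript of dpy has 82 exons in 71382 bases, with a median exon of 339 bases. That of pio has 8 exons in 3128 bases, with a median exon of 271 bases. How far exon junctions and transcript length enter the gap between the genes was not tested.

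The largest ratio of the 10 genes belonged to a gene of the dusky group. dyl (dusky-like), which is needed for chitin deposition in bristles and for the corneal lens, and m (miniature), which shapes wing cells, are relatives of dy (dusky). dyl (FBgn0066365, on chromosome 3L from 4294004 to 4307718, minus strand) had 266 FPKM at 40 h, against 0.180 at 21 h APF, which is 1475-fold higher at 40 h and a log2 ratio of 9.89 with 0.1 FPKM added at both stages. This ratio ranked 30 among the 9828 genes with a call. The 21 h level of dyl is low enough for its counting error to matter. The smallest values above 0 of long genes with a single transcript gathered at a step of 0.0232 FPKM times kilobases at 40 h and 0.0222 at 21 h, which was taken as 1 fragment over the pooled libraries. On this estimate dyl had about 30808 fragments at 40 h and 22 at 21 h, and the exact 95% Poisson interval of the 21 h number spans 0.113 to 0.273 FPKM, or a difference of 974-fold to 2354-fold. This interval covers counting error only and not the spread between replicates.

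m (FBgn0002577, on chromosome X from 11754273 to 11769508, plus strand) had 49.6 FPKM at 40 h, against 0.868 at 21 h APF, a 57.2-fold higher level at 40 h, with about 7278 fragments at 40 h and 133 at 21 h. dy (FBgn0004511), which is not among the 10 genes, lies 260 bases from the end of m on the opposite strand, with no shared exon bases, and had 27.6 FPKM at 40 h, against 0.490 at 21 h, a 56.3-fold higher level. The folds of m and dy are close, and so are their levels at each stage, where m was 1.80-fold above dy at 40 h and 1.77-fold above it at 21 h. Whether the counting used strand is not given in the sources used here.

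The next genes are best known from the embryonic epidermis, where each of their products takes its own zone of the cell's apical surface as denticles form. tyn (trynity), which also acts in the epidermal barrier and in the tubes that the larva breathes through, was the most abundant. tyn (FBgn0284435, on chromosome X from 140318 to 200663, plus strand) had 2368 FPKM at 40 h, against 84.0 at 21 h APF, a 28.2-fold higher level. It ranked 14 of 17649 genes by level at 40 h and 1023 at 21 h. Only 2 other genes of the table were at least as high at 40 h and no higher than tyn at 21 h. This count is bounded by the rank of 14 at 40 h and does not measure the size of the change. By log2 ratio tyn ranked 175 among the genes with a call, after dyl at 30, mey at 53 and m at 124. Exons of other genes cover 17.9% of its exon sequence, namely CG17707 with 11.2%, CR45473 with 6.36% and RhoGAP1A with 0.404%. These had 21.8, 9.51 and 51.3 FPKM at 40 h, and 15.0, 9.10 and 61.5 FPKM at 21 h, and none of them passed a 2-fold change.

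mey (morpheyus) and nyo (nyobe) are next to each other on chromosome 3R, 36039 bases apart and on the same strand, with only CR45573 between them, a noncoding gene listed at 0 FPKM at both stages. mey (FBgn0039851, from 31499235 to 31506992, plus strand) had 135 FPKM at 40 h, against 0.509 at 21 h APF, a 266-fold higher level, and its 21 h value corresponds to about 74 fragments, with a 95% Poisson interval from 0.3996 to 0.639 FPKM. nyo (FBgn0039852, from 31543032 to 31566165, plus strand) had 71.7 FPKM at 40 h, against 12.99 at 21 h APF, a 5.52-fold higher level. The pair thus reached levels within 1.89-fold of each other at 40 h, with mey above nyo, and differed 25.5-fold at 21 h, with nyo above mey.

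neo (neyo, FBgn0039704, on chromosome 3R from 29819131 to 29825800, plus strand) had 165 FPKM at 40 h, against 68.2 at 21 h APF, a 2.42-fold higher level and the smallest ratio among the 7 genes called higher. zye (FBgn0036985, on chromosome 3L from 20413604 to 20424309, plus strand), which codes for 2284 residues, was at 0.00641 FPKM at 40 h, against 0.00912 at 21 h. These values amount to about 2 and 3 fragments on its single transcript of 7031 bases, and both are at or under the level that 3 fragments give, so no fold is stated and zye was not detectable above that level at this depth.

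qsm (quasimodo), a ZP protein known from clock neurons for its part in the response of the clock to light, was the 1 gene called lower. qsm (FBgn0028622, on chromosome 2R from 20563034 to 20583591, minus strand) had 4.35 FPKM at 40 h, against 11.6 at 21 h APF, a log2 ratio of -1.39, or 2.66-fold lower at 40 h.

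**Figure D2:**
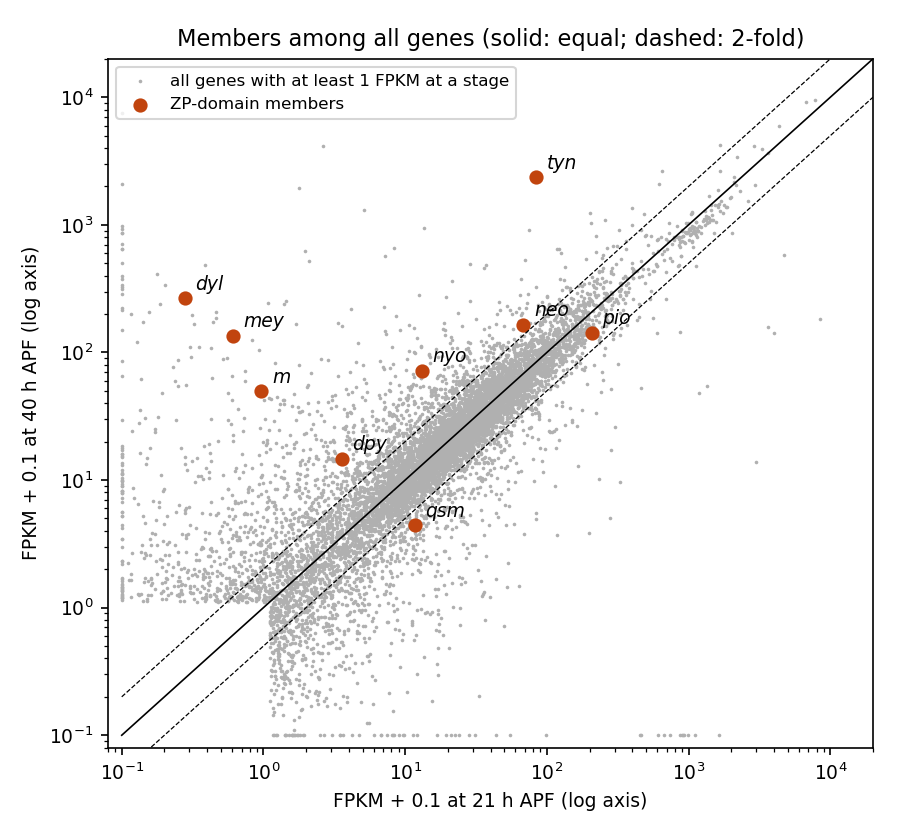
FPKM + 0.1 of every gene with at least 1 FPKM at a stage (grey), with 21 h APF on the x axis and 40 h APF on the y axis, both log axes, and the 9 ZP-domain genes with a call in orange. dyl, mey and m lie at the upper left, under 1 FPKM at 21 h and at 49.6 FPKM or more at 40 h, tyn lies near the top, pio lies between the dashed 2-fold lines, and qsm lies under the lower one.

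dyl, mey and m were under 1 FPKM at 21 h and over 40 FPKM at 40 h, a pattern that 61 of the 9828 genes with a call show, and nyo, neo and tyn were already at 12.99 to 84.0 FPKM at 21 h. dpy, at 3.46 FPKM at 21 h, stood between them. The 3 genes of the whole table whose pair of log2(FPKM + 0.1) values lay nearest to that of dyl, by distance over the 2 stages, were CG6118 (0.47), Osi12 (0.59) and Osi8 (0.60). Osi12 and Osi8 belong to the Osiris family of insect membrane proteins, known from cells that make cuticle. CG6118 had 196 FPKM at 40 h, against 0.214 at 21 h, Osi12 had 335 FPKM at 40 h and 0.1005 at 21 h, and Osi8 had 238 FPKM at 40 h and 0.0872 at 21 h.

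Of 4 further ZP-domain genes, 3 were called higher and 1 lower. nompA, which builds the cap that joins a mechanosensory dendrite to the cuticle and is made by support cells of sensory bristles, had 43.2 FPKM at 40 h, against 1.04 at 21 h APF, a 41.7-fold higher level. cyr (cypher), another gene of the denticle group, had 42.5 FPKM at 40 h, against 0.915 at 21 h, a 46.5-fold higher level. dy is given with m. pot (papillote), which acts with pio and dpy in the attachment of wing cells to cuticle, had 22.4 FPKM at 40 h, against 72.5 at 21 h, a log2 ratio of -1.69. Over the 14 ZP-domain genes named here, 13 had a call, 10 were higher and 2, pot and qsm, were lower. These 14 were picked by name and not by a search for the domain, so other ZP-domain genes may be missing. Among all 9828 genes with a call, the shares were 14.8% higher and 10.7% lower.

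Other gene lists describe the surroundings of the matrix. Of 2 membrane-bound proteases known to act on the dumpy matrix, Sb (Stubble) was called lower, with 0.818 FPKM at 40 h, against 15.3 at 21 h APF, a log2 ratio of -4.07, while Np (Notopleural) was not called, with 57.8 FPKM at 40 h, against 49.9 at 21 h. Of 4 regulators of cuticle and matrix genes found in the table, 1 was called lower and none higher. This was ovo, whose shavenbaby form activates several ZP-domain genes in the embryonic epidermis, with 2.99 FPKM at 40 h, against 30.9 at 21 h, a log2 ratio of -3.33. grh (grainy head) had 17.7 FPKM at 40 h, against 34.7 at 21 h, Ubr3, which takes part in the processing of Shavenbaby, had 27.0 FPKM at 40 h and 24.6 at 21 h, and sv (shaven) had 35.2 FPKM at 40 h and 56.9 at 21 h. None of these 3 passed the 2-fold change.

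Of the 9 genes for chitin synthesis and assembly, 1 was called higher, 2 lower and 6 neither, with a median log2 ratio of -0.09. exp (expansion), which with reb helps chitin deposition, had 22.6 FPKM at 40 h, against 2.21 at 21 h, a 10.2-fold higher level, while reb (rebuff) had 0.681 FPKM at 40 h, against 2.16 at 21 h and was called lower. The chitin synthase gene kkv had 59.4 FPKM at 40 h, against 47.4 at 21 h. obst-A, a chitin-binding matrix protein, was the most abundant of the list, with 152 FPKM at 40 h, against 163 at 21 h, and verm, a chitin deacetylase, was called lower with 36.3 FPKM at 40 h and 82.5 at 21 h. Of the 4 corneal lens genes, 3 were called higher and 1 lower. Cpr66D, a cuticle protein of the lens, had 77.1 FPKM at 40 h, against 0.129 at 21 h, a log2 ratio of 8.40, while the lens protein gene Crys had 15.8 FPKM at 40 h, against 33.9 at 21 h.

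Of the 5 genes for actin structures of bristles and hairs, 3 were called higher. f (forked), which bundles actin in bristles, had 46.9 FPKM at 40 h, against 1.53 at 21 h, a 30.6-fold higher level, and sha (shavenoid) had 7.24 FPKM at 40 h, against 0.984 at 21 h. sn, the fascin gene, was the most abundant at 248 FPKM at 40 h, against 194 at 21 h and was not called, and WASp, which activates actin nucleation, had the lowest ratio of the 5, -0.34. Of the 7 genes for proteins of the apical cell surface, 2 were called higher and 2 lower, with a median log2 ratio of -0.05. The largest ratios of this list were 1.16 for the cadherin gene Cad87A, with 48.5 FPKM at 40 h, against 21.6 at 21 h, and -1.31 for Cad86C, with 3.68 FPKM at 40 h and 9.25 at 21 h. The adhesion gene ed was its most abundant, with 139 FPKM at 40 h, against 164 at 21 h.

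**Figure D3:**
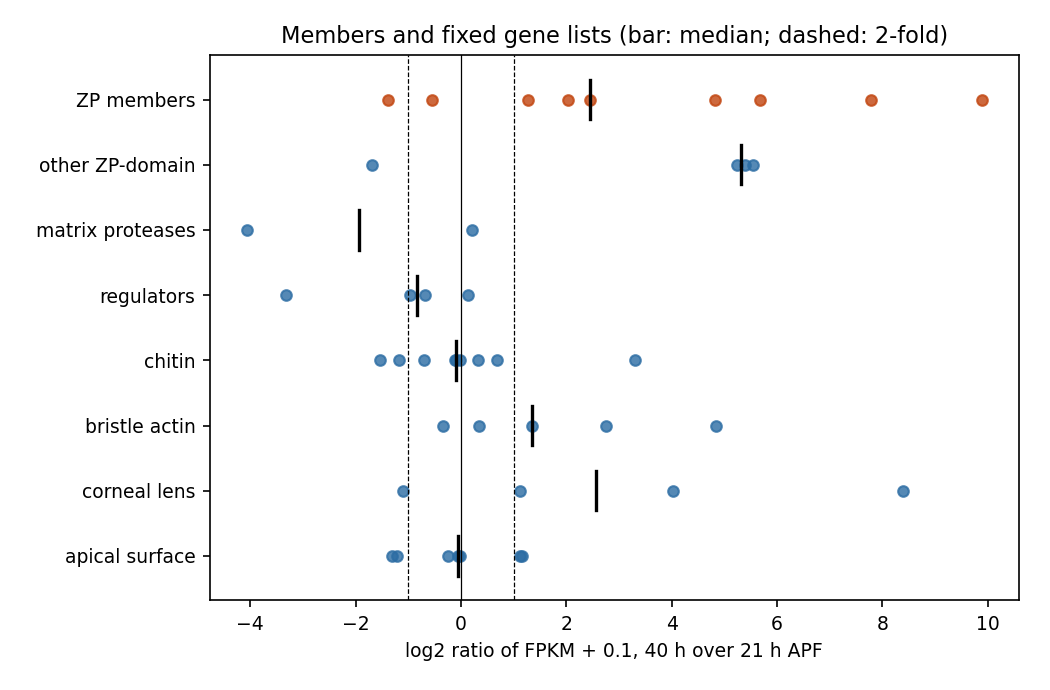
Log2 ratio of FPKM + 0.1, 40 h over 21 h APF, of the ZP-domain genes with a call (orange, top row) and of the genes of each other list with a call (blue). Each point is a gene, the black bar is the median of the row and the dashed lines mark a 2-fold change. The median is 2.46 for the ZP-domain genes and -0.09 for the chitin list.

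The neighbours of the 10 genes on the chromosomes were examined as well, a comparison chosen after the values were seen. The nearest protein-coding gene on each side that had at least 1 FPKM at a stage and no overlap was taken, which gave 16 genes that are not ZP-domain genes. Of these, 3 were called higher, 1 lower and 12 neither, and their median log2 ratio was 0.19. Among all 9828 genes with a call, 14.8% were higher and 10.7% were lower. With 16 genes the counts lie near these shares, so they are not read as a trait of the neighbours. The 3 called higher were ine and CG34351, on either side of dpy, and inaF-B, on one side of m. ine, 439 bases from dpy, had a log2 ratio of 1.00, just at the 2-fold change, and CG34351, 80420 bases away, had 2.08. inaF-B, 21502 bases from m, had 61.7 FPKM at 40 h, against 0.0364 at 21 h APF. Both neighbours of dyl were uncalled, with log2 ratios of 0.34 for Fdx2, 571 bases away, and 0.44 for PMP34. The neighbour of qsm that was called lower, Nnf1a, had a log2 ratio of -1.21, beside -1.39 for qsm itself. The 4 further ZP-domain genes had 7 such neighbours, of which sha, beside nompA, was called higher with a log2 ratio of 2.76, and CG43156, beside pot, was called lower, being listed at 0 at 40 h with 1.81 FPKM at 21 h. Of the 10 genes, dpy, m and tyn have a locus in the table that other genes share. At dpy these were CR43716, with 3.00 FPKM at 40 h and 0.0400 at 21 h, and HP6, with 0.248 FPKM at 40 h and listed at 0 at 21 h. At m it was CG9360, with 3.61 FPKM at 40 h, against 13.4 at 21 h.

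**Figure D4:**
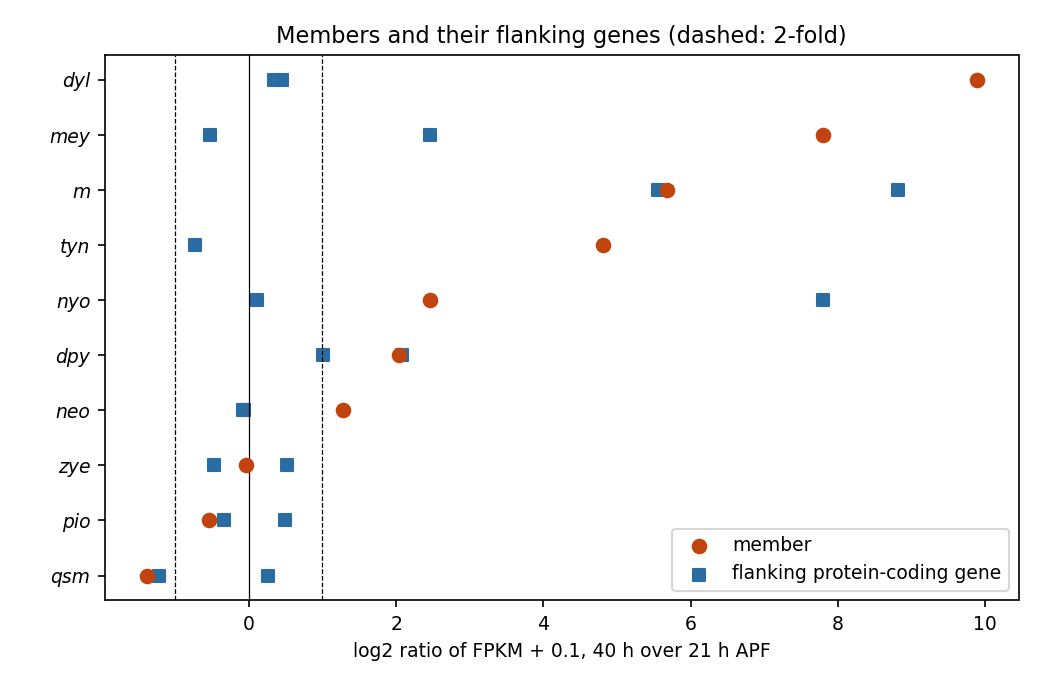
Log2 ratio of FPKM + 0.1, 40 h over 21 h APF, of each of the 10 genes (orange circles) and of its nearest protein-coding neighbour on each side with at least 1 FPKM at a stage (blue squares). The square at 2.46 beside mey is nyo and the square at 7.80 beside nyo is mey, since they neighbour each other, and one square beside m is dy. For tyn, a neighbour was found on the right side only. zye is drawn at -0.04, but its values of 0.00641 FPKM at 40 h and 0.00912 at 21 h lie far under the 0.1 FPKM added. No fold is stated for zye.

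The labelled tissue was checked against its markers. All 8 eye and photoreceptor markers had at least 1 FPKM, with a summed level of 762 FPKM at 40 h, against 1020.0 at 21 h APF. These 8 did not move together, since 1 was called higher, 1 lower and 6 neither. The higher one was ninaC, which went from 7.26 FPKM at 21 h to 139 at 40 h. The lower one was chp, which went from 370 FPKM at 21 h to 164 at 40 h. At each stage chp had the top level of this list. The 3 glial markers summed to 275 FPKM at 40 h, against 241 at 21 h. The tracheal markers btl and trh were at 0.184 and 0.157 FPKM at 40 h and 0.519 and 0.360 FPKM at 21 h, and the list of 4 tracheal markers, through vvl and Gasp, summed to 88.5 FPKM at 40 h, against 64.3 at 21 h. The hemocyte markers Hml, NimC1 and srp were under 1 FPKM at both stages, while Pxn, a basement membrane peroxidase gene on the same list, had 53.4 FPKM at 40 h, against 1.92 at 21 h, and crq was not called. The 5 hemocyte markers summed to 96.8 FPKM at 40 h, against 34.6 at 21 h. The 4 fat body markers summed to 37.9 FPKM at 40 h, against 59.3 at 21 h. The 5 muscle markers summed to 9.08 FPKM at 40 h, against 13.5 at 21 h, and did not move together. Act57B was called lower, with 3.43 FPKM at 40 h and 12.6 at 21 h, while up and Act88F were called higher, with 1.72 and 2.51 FPKM at 40 h and 0.0778 and 0.714 FPKM at 21 h. Mhc and Mf were under 1 FPKM at both stages, with 0.794 and 0.626 FPKM at 40 h and 0.0214 and 0.115 FPKM at 21 h, and the median log2 ratio of the 3 muscle markers with a call was 1.68. Of the 5 bristle lineage markers, nompA was called higher, ase and sens were called lower with 0.483 and 2.21 FPKM at 40 h and 5.42 and 7.37 FPKM at 21 h, nompC reached at most 0.134 FPKM, and Poxn was listed at 0 at 40 h with 0.0378 FPKM at 21 h. The part of any of these cell types in the levels of the ZP-domain genes was not tested.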

How the data were processed

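RNA sequencing of 3 replicate pools of Canton S pupal eyes per stage gave 6 libraries. The authors mapped reads to BDGP6 (annotation of Ensembl release 93) by bowtie2, an aligner without spliced alignment, and obtained expression from Cuffdiff under its geometric scaling with a correction for bias. Versions and the strand setting are not given in the sources used here. The deposited table holds 1 FPKM value per gene and stage, pooled by the authors over the replicates. Its 5 further columns, the authors' own log2 ratio, test score, p-value, q-value and mark of significance, were not used, and it holds no depth and no value of a single library.

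Log2 ratios of FPKM + 0.1 were computed for all genes. A gene with at least 1 FPKM at a stage was called at a 2-fold change. Gene positions, counted from 1, were taken from the BDGP6 annotation of Ensembl release 115, which holds 17512 of the 17649 gene identifiers. Fragments were estimated from the lowest FPKM values of genes with 1 transcript of over 1500 exon bases, taking each gene's shortest transcript, a step added after the values were seen. Of the listed symbols, tal had no match and is not reported, and wasp and Pox-n were matched by RefSeq synonyms as WASp and Poxn. The genes named are the 10 members, all of the ZP-domain, protease and regulator lists, and a few further genes chosen after their values were seen. The glial and fat body lists are given by their sums only. Of the remaining fixed lists, the genes with the highest level, the largest rise and the largest fall are named. Protein and promoter sequence features, which had been planned, were not analysed here. The members and lists were chosen with earlier results of these data known. Alternatives were other pseudocounts, scalings, minimums and folds, and leaving out genes at a shared locus. Computations ran in Python 3.11.15 (pandas 2.3.3, numpy 2.4.6, scipy 1.17.1), and plots were drawn by matplotlib 3.10.9.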

Additional observations from a re-analysis of the deposited data

How the results depend on the processing

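All 36 values of the ratios of the 9 genes with a call under no pseudocount, a pseudocount of 1 FPKM, centring on the median and rescaling to the same sum kept their direction and their side of the 2-fold change, and zye, with about 2 and 3 fragments, was left out of this count. The number of genes called higher was 7 in the main analysis and moved most, to 4, when genes at a shared locus were left out, since dpy, m and tyn are then not counted. The calls of the remaining genes did not change, and 14.7% of all genes were called higher in that setting. The number called lower was 1 and was 0 at a 4-fold change, which qsm does not reach. The median log2 ratio of the genes ranged from 1.86 to 2.48 over 7 alternatives. The share of all genes called higher was 14.8% at 2-fold, 22.6% at 1.5-fold and 7.54% at 4-fold, and the share called lower was 10.7% at 2-fold, 18.7% at 1.5-fold, 4.66% at 4-fold and 6.77% with a minimum of 10 FPKM. Of 224 counts of the fixed lists under alternatives, 203 were within 1.5 times the count of the main analysis. Counts that were 0 in both are among these 203, so this share says little about the lists without calls. No paired analysis was possible because the table holds 1 pooled value per stage, which also left no replicate to leave out. The folds of genes under 1 FPKM at 21 h rest on few fragments at that stage, about 22 for dyl, 74 for mey, 90 for dy, 98 for cyr and 133 for m.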
